A study of Homo sapiens with 8 samples.

Results

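Hairpin PTK7-1 is 1 of 2 short hairpin RNAs that were used against PTK7 in 2 human non-small cell lung cancer lines, NCI-H1299 (H1299) and NCI-H2009 (H2009). Described here is gene expression on the 2 arrays with this hairpin, 1 in each line, against the 4 arrays with control hairpins, so that 6 of the 8 arrays of the series entered the comparison. The members were chosen by hairpin name, and both arrays of the other hairpin, PTK7-2, were left out. The question is which genes differed with PTK7-1 in both lines, whether the lines gave the same picture, and which of these genes also differed from PTK7-2.

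Every array held total RNA of cells infected with a lentivirus that carries a hairpin and a puromycin resistance. Infection lasted 2 days and selection 2 days, and RNA was taken at day 4 after infection. The control hairpins were directed against GFP and luciferase (LUC), which the cells do not carry as genes of their own. There was 1 array per hairpin and line, so the PTK7-1 group holds a single array in a line and the control group of a line holds 2 arrays of different hairpins. Nothing in the labels says that cultures were repeated, and p-values therefore measure the spread between these arrays, which may be technical. In such bulk RNA, fewer cells of a kind and less RNA per cell cannot be told apart.

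PTK7 encodes a membrane protein with an immunoglobulin-like outer part and an inner kinase fold that lacks catalytic activity. It acts as a co-receptor with Wnt ligands and Frizzled receptors and is known for its part in planar cell polarity, the alignment of cells within a sheet, and in cell movement. A short hairpin RNA is cut by the cell's own small RNA machinery into a guide strand, which lowers messages that it pairs with. Pairing of the first bases of a guide alone can lower other messages too, so that different hairpins against the same gene are commonly compared.

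Values are log2 expression values of the brightest probe set of each of 18404 genes, and array medians lay between 5.31 and 5.41. The keratin gene KRT18 of epithelial cells was bright in both lines. It read 11.36 and 10.56 on the H1299 control arrays and 11.30 and 11.26 on the H2009 control arrays. Over the 12 measured epithelial and lung lineage markers the median control level was 5.21 in H1299 and 9.64 in H2009. Other epithelial markers separated the lines, with EPCAM at 3.46 and 3.32 in H1299 and 11.18 and 11.30 in H2009. The surfactant gene SFTPC, a marker of alveolar cells, was dim in both lines, at 4.04 to 4.43 on the 6 arrays. Markers of leukocytes, fibroblasts and endothelium had median levels between 3.58 and 4.49 over the control arrays of each line, and 0 of the 34 measured members of these 3 lists passed the threshold with PTK7-1.

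PTK7 itself, read by probe set 8119689, was the gene the hairpin was directed against. In H1299 it read 5.73 with GFP, 6.03 with LUC and 5.63 with PTK7-1, a level of 83.7% of the control mean. In H2009 it read 6.64, 6.86 and 5.63, a level of 46.2% of the control mean. The PTK7-1 array lay below both control arrays in each line, by a wide margin in H2009 and by less than the gap between the 2 controls in H1299. Over both lines the log2 difference was -0.68 ± 0.20 (standard error of the fit, as for all errors after ± here), with a 95% interval from -1.17 to -0.20. It did not pass the threshold (limma, Benjamini-Hochberg adjusted p = 0.160), and an exact two-sided permutation of arrays within the lines gave p = 0.111, the smallest that its 9 arrangements allow. With the other hairpin PTK7 read 5.53 in H1299 and 5.94 in H2009.

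With hairpin PTK7-1, 402 genes passed an adjusted p of 0.05 over both lines, which is 2.18% of all genes tested (limma with cell line as covariate and Benjamini-Hochberg adjustment over 18404 genes). Of these, 320 (1.74% of all genes) were lower and 82 (0.446%) were higher than the controls. The lower genes had a median log2 difference of -0.79 and reached -2.12, and 85 of them were at least 2-fold lower. The higher genes had a median difference of 0.74 and reached 2.49, and 18 of them were at least 2-fold higher. The median over all genes was 0.01. All 402 genes read beyond both control arrays in each line, as 18.0% of all genes did on the higher side and 17.4% on the lower side.

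The lower genes were mostly well expressed. Their median control level was 8.39, against 7.17 for the higher genes and 6.33 for all genes. When the genes were divided by control level into classes of 4601 genes, the lower genes numbered 1 in the dimmest class, 13 in the second, 118 in the next and 188 in the brightest (4.09% of that class). The higher genes numbered 0, 23, 32 and 27 in the same order. Lower genes thus outnumbered higher genes by a wide margin in both brighter classes, while the second class held more higher than lower genes and the dimmest class a single lower gene. The part of signal level in these counts was not tested.

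**Figure D1:**
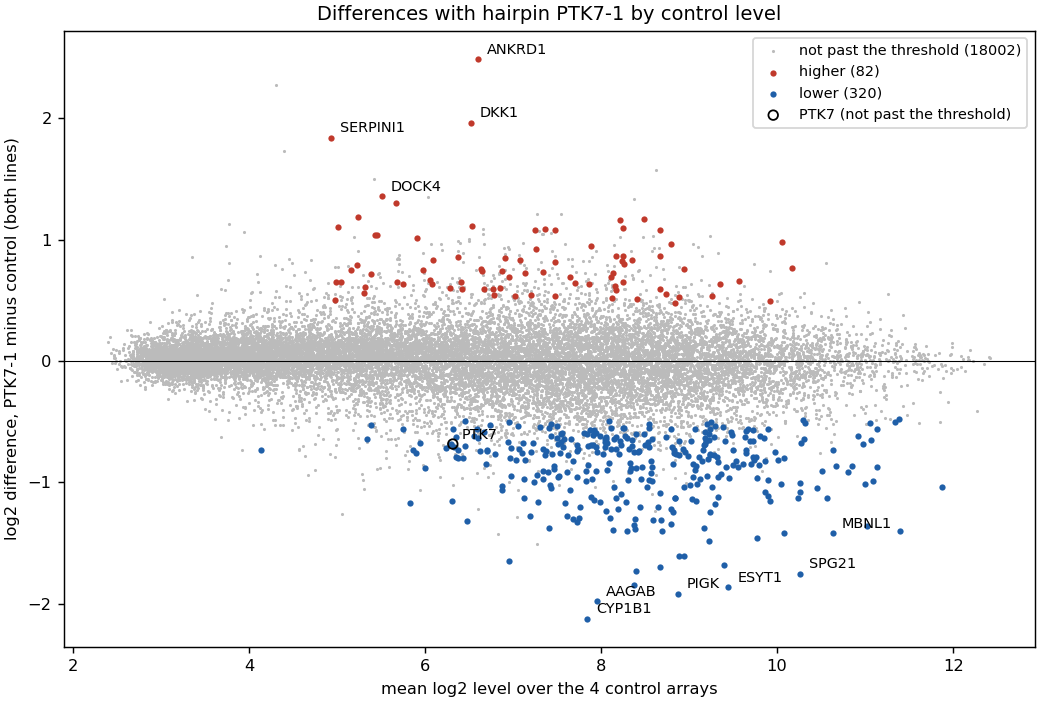
Log2 difference between hairpin PTK7-1 and the control hairpins over both lines (vertical axis) against the mean log2 level over the 4 control arrays (horizontal axis), 1 point per gene. The 320 lower genes (blue) lie mostly at levels above 6.33, the 82 higher genes (red) are fewer and spread more evenly, and PTK7 (open circle) is at -0.68 without passing the threshold.

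The number of genes past the threshold depended on single arrays. It was 61 without the H1299 PTK7-1 array, 106 without the H2009 PTK7-1 array, 20 without the H2009 GFP array and 55 without the H2009 LUC array. With the GFP arrays as the only controls 187 genes passed, and with the LUC arrays as the only controls 0 passed by limma while 2134 had an unadjusted p under 0.05. With the hairpin as a replicate block, which took up only the gap between GFP and LUC, 347 genes passed (1.89%). Of these, 78 were higher (0.424% of all genes) and 269 lower (1.46%). In that fit 3035 genes (16.5%) had an unadjusted p under 0.05, against 3019 (16.4%) without the block. A fit that took hairpins as random gave 764 genes (4.15%), 186 higher (1.01%) and 578 lower (3.14%), and 3708 (20.1%) had an unadjusted p under 0.05. Its estimated correlation between arrays of the same hairpin was below 0, at -0.18. Such a value narrows the errors of this contrast, as for PTK7 with 0.18 against 0.20. The larger count is thus not a more secure one. None of the 402 genes changed its sign in any of these settings. Lower genes made up 79.6% of the calls, and between 67.2% and 90% of them when each array was left out in turn.

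The most strongly lowered genes came from many parts of the cell rather than from a single pathway, by the known roles of their products. CYP1B1, a cytochrome P450 that oxidises hormones and aromatic compounds, had the largest decrease. It read 7.89 and 7.92 on the H1299 control arrays and 5.80 with PTK7-1, and 7.74 and 7.81 on the H2009 control arrays and 5.63 with PTK7-1. The controls of a line lay within 0.1 of each other, and both PTK7-1 arrays were about 4-fold below them. The log2 difference was -2.12 ± 0.09 (limma, Benjamini-Hochberg adjusted p = 0.00122).

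AAGAB, a chaperone in the assembly of clathrin adaptor complexes, followed closely. It read 8.11, 8.11 and 6.06 with GFP, LUC and PTK7-1 in H1299 and 7.78, 7.81 and 5.88 in H2009. Its log2 difference was -1.98 ± 0.09 (limma adjusted p = 0.00122), with almost no gap between controls. PIGK, the catalytic subunit of the enzyme that attaches GPI anchors to proteins, read 8.45, 8.62 and 6.46 in H1299 and 9.15, 9.26 and 7.44 in H2009. Its difference was -1.92 ± 0.11 (limma adjusted p = 0.0038). ESYT1, which tethers the endoplasmic reticulum to the plasma membrane, read 9.72, 9.73 and 7.70 in H1299 and 9.18, 9.16 and 7.47 in H2009, again with both PTK7-1 arrays far below controls that were nearly equal. It fell by 1.86 ± 0.11 on the log2 scale (limma adjusted p = 0.0038).

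Membrane and secretory pathway genes were among the other strongly lowered ones. SVIP, a small inhibitor of endoplasmic reticulum-associated degradation, had the largest decrease in H1299, from 7.63 and 7.04 to 4.93, and went from 9.51 and 9.33 to 8.14 in H2009. SPG21, whose product maspardin sits on endosomes, went from 10.34 and 10.29 to 8.36 in H1299 and from 10.21 and 10.19 to 8.64 in H2009. SLC35B2 carries the sulfate donor PAPS into the Golgi apparatus. It read 9.0, 9.22 and 7.39 with GFP, LUC and PTK7-1 in H1299 and 8.68, 8.86 and 7.27 in H2009. HSD17B12, a reductase of fatty acid elongation, read 9.71, 9.88 and 7.70 in H1299 and 9.72, 9.77 and 8.93 in H2009, so that the decrease was larger in H1299. Log2 differences over both lines were -1.84 ± 0.27 for SVIP, -1.75 ± 0.11 for SPG21, -1.61 ± 0.12 for SLC35B2 and -1.46 ± 0.26 for HSD17B12 (limma adjusted p of 0.0272, 0.004, 0.004 and 0.0465). HSD17B12 did not pass with the hairpin as a replicate block, where its adjusted p was 0.064, and its difference was -0.82 without the H1299 PTK7-1 array. In all it lost the call in 12 of 20 settings. These included all 8 arrays, quantile normalization, cyclic loess, every probe set and the GFP arrays as the only controls.

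Mitochondrial enzymes formed another pair. NDUFB10, a subunit of respiratory complex I, went from 8.70 and 8.86 to 6.77 in H1299 and from 8.62 and 8.52 to 7.19 in H2009. GPD2, the mitochondrial glycerol-3-phosphate dehydrogenase, went from 9.23 and 9.26 to 7.74 in H1299 and from 9.45 and 9.63 to 7.70 in H2009. The log2 differences were -1.70 ± 0.15 and -1.68 ± 0.11 (limma adjusted p of 0.00755 and 0.004). Other complex I and ATP synthase subunits did not share this as a group: 2 of the 52 measured, NDUFB10 and ATP5MC1, were lower, where 1.74% of all genes were, and the median over the 52 was -0.10. That group was put together after the values were seen.

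The remaining strongly lowered genes act in signalling, the cytoskeleton and RNA processing. PPP3CA, the catalytic subunit of the calcium-dependent phosphatase calcineurin, read 8.94, 8.97 and 7.55 in H1299 and 9.55, 9.44 and 7.93 in H2009. HIPK3, a nuclear serine/threonine kinase, read 8.93, 9.31 and 7.81 in H1299 and 8.67, 8.65 and 6.76 in H2009. MBNL1, a regulator of alternative splicing, read 10.80, 10.69 and 9.25 in H1299 and 10.59, 10.45 and 9.18 in H2009. A PTK7-1 array below both controls in each line was a condition for naming these genes, and 17.4% of all genes met it. The log2 differences were -1.49 ± 0.09 for PPP3CA, -1.61 ± 0.17 for HIPK3 and -1.42 ± 0.10 for MBNL1 (limma adjusted p of 0.004, 0.0117 and 0.004). ABRACL, an actin regulator of the costars family, and EPB41L4A, a band 4.1-like protein, had differences of -1.73 ± 0.18 and -1.65 ± 0.14 (limma adjusted p of 0.0107 and 0.00727).

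Of these 15 lowered genes, 9 passed the threshold without each of the 6 arrays in turn: CYP1B1, AAGAB, PIGK, ESYT1, SPG21, GPD2, SLC35B2, PPP3CA and MBNL1. The call of ABRACL, NDUFB10 and EPB41L4A was lost without the H2009 GFP array, at an adjusted p of 0.0527 for each. HIPK3 lost its call without either H2009 control array or the H2009 PTK7-1 array (adjusted p from 0.0539 to 0.0683). SVIP and HSD17B12 lost theirs without the H1299 LUC array, the H1299 PTK7-1 array or either H2009 control array, and HSD17B12 also without the H1299 GFP array (adjusted p from 0.0519 to 0.132). With the LUC arrays as the only controls all 15 lost the call, and with every probe set fitted SVIP and HSD17B12 did.

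The higher genes were fewer, and the 3 with the largest differences were ANKRD1, DKK1 and SERPINI1. DKK1 is a secreted inhibitor of Wnt signalling that binds the LRP co-receptors. It read 5.41 and 5.24 on the H1299 control arrays and 7.16 with PTK7-1, and 8.21 and 7.22 on the H2009 control arrays and 9.80 with PTK7-1. The PTK7-1 array was the highest of the 3 in each line, although the H2009 controls were 1 log2 unit apart. The difference was 1.96 ± 0.26 (limma, Benjamini-Hochberg adjusted p = 0.0209). SERPINI1, the secreted protease inhibitor neuroserpin, read 5.11, 4.62 and 6.56 in H1299 and 5.06, 4.94 and 6.97 in H2009. Its difference was 1.84 ± 0.15 (limma adjusted p = 0.00702).

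ANKRD1 encodes an ankyrin repeat protein of muscle and nucleus and is a commonly used target of the co-activators YAP and TAZ, which bind DNA through TEAD factors. It had the largest increase, from 7.70 and 8.73 to 11.50 in H1299 and from 5.0 and 4.99 to 6.68 in H2009. The H1299 controls differed from each other by more than those of any other of the 15 genes, yet the PTK7-1 array was well above both. The log2 difference was 2.49 ± 0.40 (limma adjusted p = 0.0345), a 5.61-fold increase. The promoter of ANKRD1, 250 bases before the RefSeq start at chr10:90921088-90921337 (GRCh38.p14, minus strand), is shown because it carries the TEAD core GGAATG, searched on both strands and set in capitals here. The 2 matches start 220 and 128 bases before the gene start.
ANKRD1: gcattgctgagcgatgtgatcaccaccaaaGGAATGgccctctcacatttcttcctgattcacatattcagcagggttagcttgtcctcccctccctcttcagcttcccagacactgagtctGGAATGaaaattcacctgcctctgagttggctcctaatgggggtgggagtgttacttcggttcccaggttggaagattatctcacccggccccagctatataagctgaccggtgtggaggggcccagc
Such a match was found in 10.0% of 14230 promoters of the same length.

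Of the other 12 genes with the largest increases, DOCK4, IL1RAP and SEC61A2 had the smallest adjusted p. DOCK4, an exchange factor for the small GTPases Rac and Rap, read 5.50, 5.47 and 6.77 with GFP, LUC and PTK7-1 in H1299 and 5.63, 5.45 and 6.97 in H2009, with a difference of 1.36 ± 0.10 (limma adjusted p = 0.00411). IL1RAP, the shared signalling subunit of interleukin-1 family receptors, read 7.64, 7.52 and 8.56 in H1299 and 6.99, 6.85 and 8.10 in H2009, with a difference of 1.08 ± 0.10 (limma adjusted p = 0.00842). SEC61A2, an alpha subunit of the translocation channel of the endoplasmic reticulum, read 8.31, 8.52 and 9.73 in H1299 and 8.01, 8.03 and 9.03 in H2009, with a difference of 1.16 ± 0.12 (limma adjusted p = 0.0103). That the PTK7-1 array read above both controls in each line was required for naming these genes, and 18.0% of all genes did so. SEMA3E, a secreted semaphorin and plexin ligand, and CEMIP2, a cell surface hyaluronidase, rose by 1.11 ± 0.17 and 1.09 ± 0.18 (limma adjusted p of 0.0312 and 0.0345). SNAPC1 of the small nuclear RNA activating complex, the ubiquitin ligase adaptor KBTBD8, MLLT11 and the mannosyltransferase TMTC3 rose by 1.17, 1.10, 1.10 and 1.08 (limma adjusted p from 0.0145 to 0.0251). TMEM145, EEIG2 and the pseudogene ZNF702P rose by 1.30, 1.08 and 1.19 (limma adjusted p of 0.043, 0.0283 and 0.0368), and TMEM145 did not pass with the hairpin as a replicate block (0.0583).

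Among these 15 higher genes, DOCK4 passed without each of the 6 arrays in turn and the other 14 did not. Without the H1299 PTK7-1 array 13 of the 15 lost the call, with adjusted p from 0.0528 to 0.169. Without the H2009 GFP array 13 lost it, without the H2009 LUC array 10, without the H2009 PTK7-1 array 7, and without the H1299 GFP or the H1299 LUC array 4 each, with adjusted p of at most 0.17. ANKRD1 lost its call without the H1299 LUC, H1299 PTK7-1, H2009 GFP or H2009 LUC array, DKK1 without either PTK7-1 array, and SERPINI1 without the H2009 GFP or H2009 PTK7-1 array. With the LUC arrays as the only controls all 15 lost it. In the fit of every probe set 8 of the 15 lost it, ANKRD1 and DKK1 among them (limma adjusted p from 0.0584 to 0.0957). Quantile normalization and cyclic loess each cost the calls of TMEM145 and ZNF702P, and the fit of all 8 arrays those of ZNF702P and CEMIP2. TMEM145 had a difference of 0.77 without the H1299 PTK7-1 array, against 1.30 with it.

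**Figure D2:**
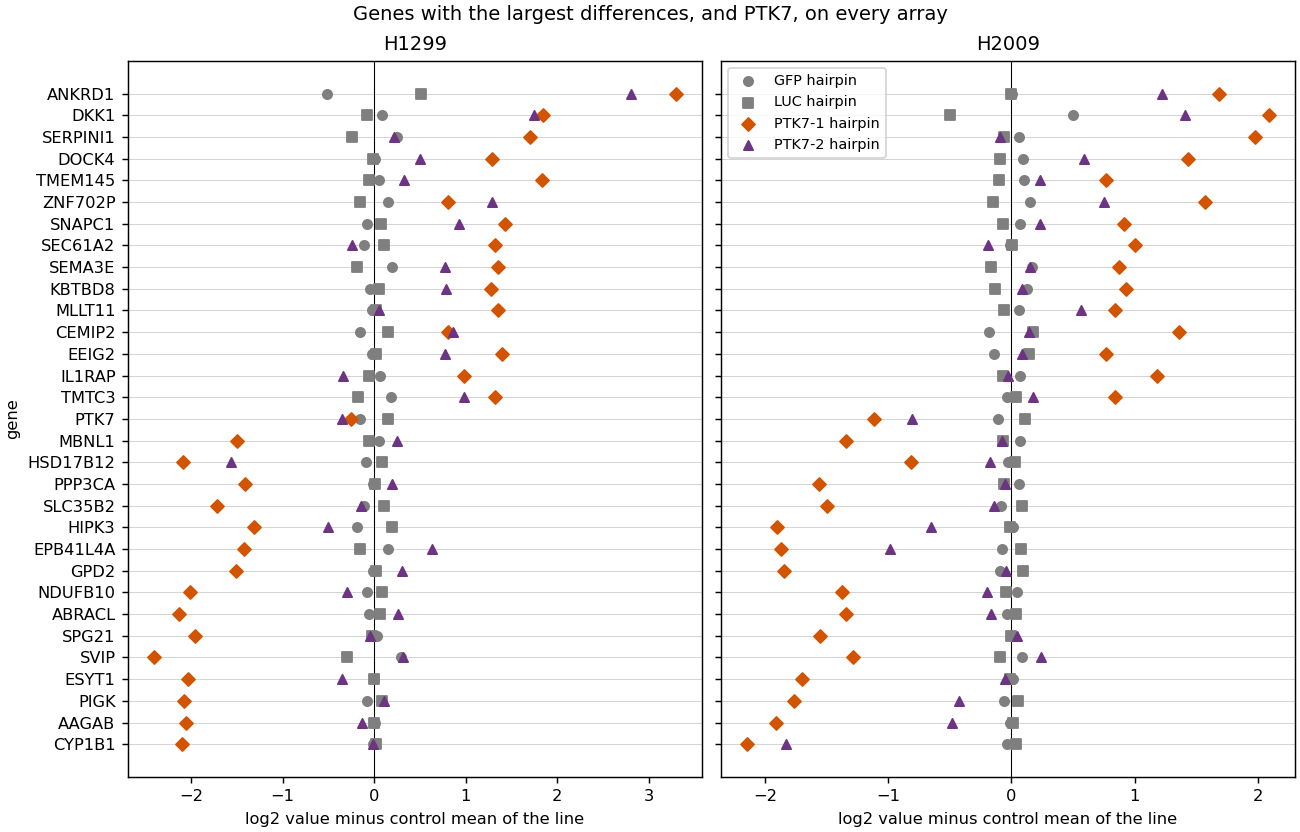
Log2 value minus the control mean of the line for the 15 most raised genes, PTK7 and the 15 most lowered genes (rows), in H1299 (left) and H2009 (right), with 1 symbol per array. The PTK7-1 arrays (diamonds) lie beyond both controls (grey) for every gene shown, which the choice of genes required for all but PTK7. Examples are 3.29 for ANKRD1 and -2.10 for CYP1B1 in H1299. The PTK7-2 arrays (triangles) lie near the controls for most of the lowered genes.

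The lines could be set against each other without shared arrays. In H1299, 162 genes were at least 2-fold lower with PTK7-1 than the control mean and below both controls, with a median log2 difference of -1.22. In H2009 the same 162 genes had a median of -0.80, and 138 of them (85.2%) lay below both H2009 controls, as did 38.6% of all genes. The 82 genes at least 2-fold higher in H1299 had a median of 0.37 in H2009, and 56 of them (68.3%) lay above both H2009 controls, as did 40% of all genes. Both shares lay above those of all genes, and the difference between the shares of lowered and raised genes was not tested.

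The genes were also picked in H2009 and read in H1299. Of 165 genes at least 2-fold lower there, 109 (66.1%) lay below both H1299 controls against 32.8% of all genes, with a median of -0.61 in H1299. Of 101 genes at least 2-fold higher there, 51 (50.5%) lay above both H1299 controls against 36.8% of all genes, with a median of 0.20. Across all 18404 genes Pearson r between the line differences was 0.39 for PTK7-1 and 0.28 for PTK7-2, and 0.23 for GFP minus LUC. These correlations run over genes of the same arrays, which are not independent, and all genes of a line share its 2 control arrays.

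Tested within a line, where the single PTK7-1 array was taken to vary like the controls, 106 genes (0.576%) passed in H1299, 27 higher (0.147%) and 79 lower (0.429%). In H2009, 61 genes (0.331%) passed, 20 higher (0.109%) and 41 lower (0.223%). With the hairpin as a replicate block the counts were 633 and 638. The counts depended on the control arrays: without either H2009 control array 1 gene passed in H1299 and 0 in H2009, and without either H1299 control array between 650 and 1047 passed in H1299 and 926 in H2009. By limma 0 genes passed a test of the difference between the lines, where 1623 had an unadjusted p under 0.05 (8.82% of all genes), while 9 passed with the replicate block and 8 or 9 without an H1299 control array.

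Some genes read far from the controls in a single line. ADM, a vasodilator peptide induced by low oxygen, read 7.35, 7.30 and 9.62 with GFP, LUC and PTK7-1 in H1299 and 5.95, 6.01 and 5.78 in H2009. It rose in H1299 by 2.30 (limma adjusted p = 0.016), and by the same test had a difference of -0.20 in H2009 (0.573). ETV4, an ETS transcription factor downstream of ERK signalling, read 8.37, 8.05 and 8.06 in H1299 and 5.09, 5.12 and 7.44 in H2009. It rose in H2009 by 2.33 (limma adjusted p = 0.0399) with a difference of -0.15 in H1299. In H2009 cells with PTK7-1, ETV4 thus read closer to its H1299 level, while ADM in H1299 cells read further from its H2009 level.

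Others named for passing within a line were the olfactory receptor pseudogene OR7E19P and the kinase DYRK4 in H1299, and ELOVL2, SERPINB9, TFPI2 and AOAH in H2009. Values of the other line are given here for OR7E19P only. OR7E19P read 4.76, 4.46 and 8.24 in H1299 and 4.34, 4.02 and 4.01 in H2009, and its family has many near-identical copies that the probes may not tell apart. ELOVL2, an elongase of polyunsaturated fatty acids, rose by 2.01 in H2009, the protease inhibitor TFPI2 by 1.67 and the granzyme inhibitor SERPINB9 by 1.74, and AOAH, an enzyme that inactivates bacterial lipopolysaccharide, fell by 1.91 (limma adjusted p from 0.0399 to 0.0427). DYRK4 rose by 2.04 in H1299 (limma adjusted p = 0.0299). The calls of ETV4, ELOVL2, TFPI2, SERPINB9 and AOAH were lost without either H2009 control array (adjusted p from 0.0875 to 0.211), and those of ADM and DYRK4 likewise (0.0594). Since 0 genes passed the test between lines, none of these is shown to differ between the lines. By smallest p in that test, OASL, COL12A1 and SNORD116-21 stood beside ADM, OR7E19P and ETV4, with differences of 0.06, -0.51 and 0.10 in H1299 and -1.84, 1.21 and 1.64 in H2009.

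**Figure D3:**
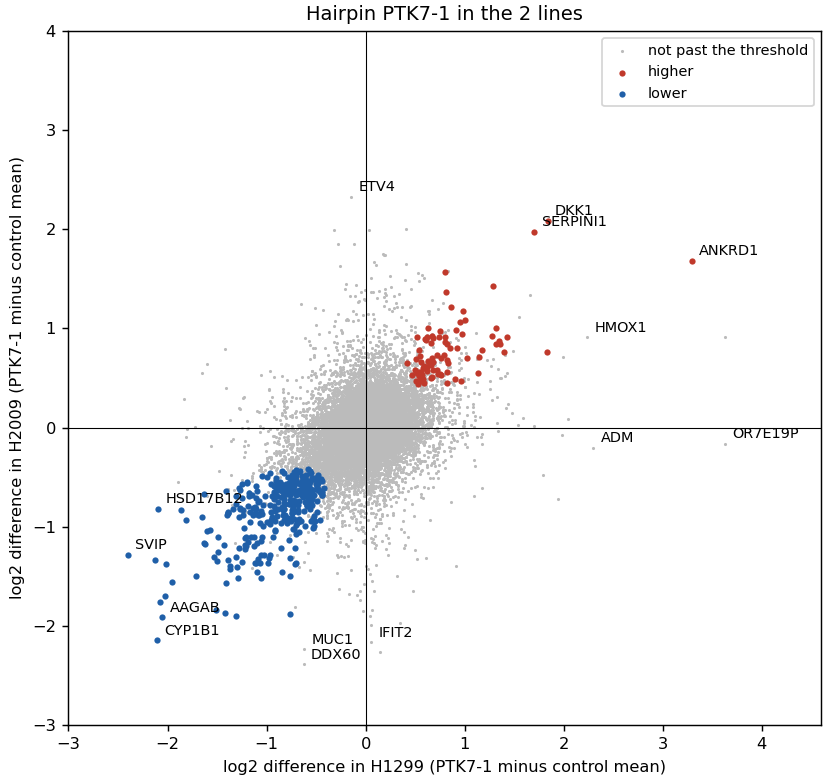
Log2 difference with hairpin PTK7-1 in H2009 (vertical axis) against that in H1299 (horizontal axis), 1 point per gene, with the 402 genes past the threshold over both lines in colour. CYP1B1 and AAGAB are low in both lines, ANKRD1 and DKK1 are high in both, and ADM (2.30 in H1299) and ETV4 (2.33 in H2009) are high in a single line.

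The other hairpin against the same gene allowed a comparison without control arrays in the contrast. Between PTK7-1 and PTK7-2, 686 genes (3.73%) differed over both lines (limma over 8 arrays, hairpin plus line), 357 higher (1.94%) and 329 lower (1.79%) with PTK7-1. This contrast shares the PTK7-1 arrays with the comparison against controls. Of the 320 genes lower with PTK7-1 than the controls, 154 were also lower with PTK7-1 than with PTK7-2 and 1 was higher. Of the 82 higher genes, 26 were also higher than with PTK7-2 and 0 were lower. The count of 686 was 0 without the H1299 PTK7-1 array, 92 without the H2009 PTK7-1 array and 97 without the H1299 PTK7-2 array, and 433 genes passed when the control arrays were left out of the fit.

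For most of the lowered genes the values with PTK7-2 were near those of the controls, which both comparisons share. Over the 320 lower genes the median difference from the controls was -0.79 with PTK7-1 and -0.07 with PTK7-2, where the quartiles ran from -0.36 to 0.09. Over the 82 higher genes it was 0.74 with PTK7-1 and 0.15 with PTK7-2. The median over all genes was 0.01 with PTK7-1 and 0.04 with PTK7-2. In array terms, ESYT1 read 9.38 and 9.11 with PTK7-2 in H1299 and H2009, SPG21 read 10.27 and 10.24 and PPP3CA read 9.15 and 9.45, all within 0.4 of the control arrays of their line. The differences between the hairpins were -1.66, -1.75 and -1.56 on the log2 scale (limma adjusted p of 0.00628 each).

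Of the 15 most lowered genes, 12 passed the test against PTK7-2, and the 3 others were CYP1B1, EPB41L4A and HSD17B12. CYP1B1 read 7.89 with PTK7-2 in H1299, at the control level, and 5.94 in H2009, near the PTK7-1 array. EPB41L4A read 7.95 and 5.60 with PTK7-2, above its H1299 controls of 7.46 and 7.16 and below its H2009 controls of 6.51 and 6.67. HSD17B12 read 8.23 in H1299, near the PTK7-1 array, and 9.58 in H2009, near the controls. With PTK7-2 each of these 3 genes thus lay below both controls by a wide margin in a single line. The log2 differences between hairpins were -1.20, -1.47 and -0.59 (limma adjusted p of 0.174, 0.0789 and 0.49).

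Of the 15 most raised genes, 4 passed the test against PTK7-2: SERPINI1, DOCK4, SEC61A2 and IL1RAP. SERPINI1 read 5.08 and 4.90 with PTK7-2 in H1299 and H2009, within the range of its controls in H1299 and just below them in H2009. The difference between the hairpins was 1.78 for SERPINI1, 0.81 for DOCK4, 1.37 for SEC61A2 and 1.27 for IL1RAP (limma adjusted p of 0.00634, 0.0209, 0.00785 and 0.00827). With PTK7-2, ANKRD1 read 11.02 and 6.22 and DKK1 read 7.06 and 9.12 in H1299 and H2009, above both controls in each line. Their differences between hairpins were 0.47 and 0.39 (limma adjusted p of 0.729 and 0.433).

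**Figure D4:**
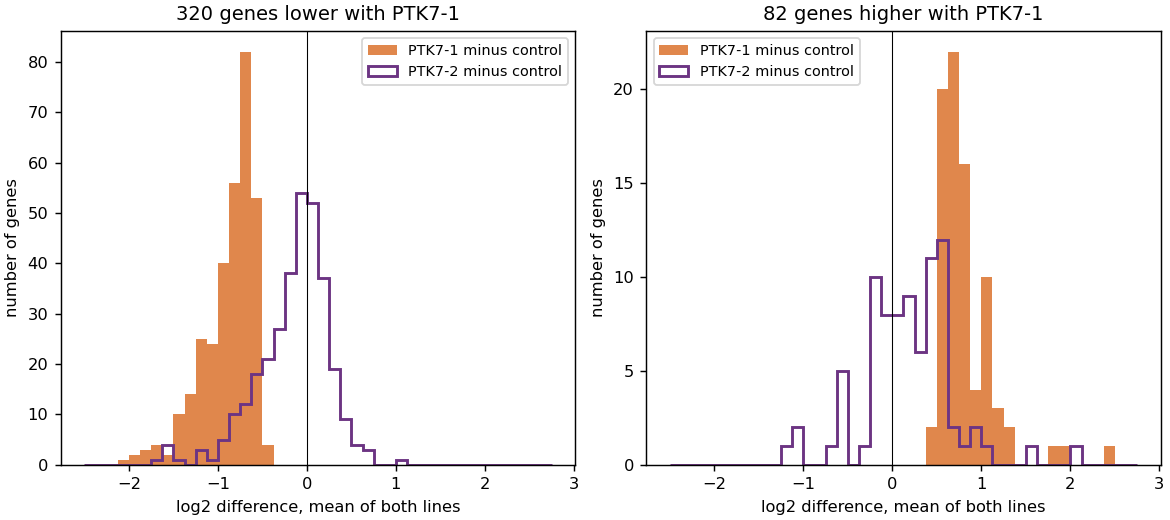
Number of genes (vertical axis) by log2 difference from the controls over both lines (horizontal axis), for the 320 genes lower with PTK7-1 (left) and the 82 higher (right), with PTK7-1 in orange and PTK7-2 as a purple outline, where the genes were picked by the PTK7-1 values. The purple outline is centred near 0 for the lower genes (median -0.07) and at 0.15 for the higher genes.

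A few genes went in opposite directions with the 2 hairpins. Among genes past both tests, 16 had values with PTK7-2 at least 0.5 from the controls on the other side on average over the lines. These were singled out after their values were seen. WWC2 and WWC3, relatives of the Hippo pathway scaffold KIBRA, rose by 0.95 ± 0.13 and 0.74 ± 0.13 with PTK7-1 (limma adjusted p of 0.0253 and 0.0457). With PTK7-2 their differences from the same controls were -1.15 and -0.97 for WWC2 and -0.87 and -1.13 for WWC3 in H1299 and H2009. MLEC, an endoplasmic reticulum lectin, had 0.55 ± 0.10 with PTK7-1 (limma adjusted p = 0.0428), which did not pass with the replicate block (0.0542), and -0.999 and -1.27 with PTK7-2. WWC2 read 8.06, 7.69, 8.78 and 6.72 with GFP, LUC, PTK7-1 and PTK7-2 in H1299 and 8.03, 7.78, 8.89 and 6.93 in H2009, so that the controls lay between the hairpins in both lines.

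Others of the 16 were lower with PTK7-1 and above the controls with PTK7-2, among them CFL2, PAK4 and CSRP1, with MPP1, MT1X, SMPD1 and ZNF860. CFL2, the muscle-type cofilin that severs actin filaments, read 8.89, 8.73, 7.69 and 9.55 in H1299 and 8.94, 8.70, 7.45 and 9.27 in H2009. It fell by 1.24 ± 0.12 with PTK7-1 (limma adjusted p = 0.00842). PAK4, a kinase of the Cdc42 pathway, fell by 0.88 ± 0.13 and the actin-bundling protein CSRP1 by 1.08 ± 0.14 (limma adjusted p of 0.0277 and 0.0215), and with PTK7-2 their differences were 0.88 and 0.45 and 0.80 and 0.38. WWC2, WWC3, MLEC, CFL2, PAK4 and CSRP1 lost the call against controls without the H1299 PTK7-1 or the H2009 GFP array (adjusted p from 0.0511 to 0.221 over all arrays that cost a call). WWC3 and MLEC also lost it without the H1299 GFP array, MLEC without the H1299 LUC array, all of these but CFL2 without the H2009 LUC array, and all but CSRP1 without the H2009 PTK7-1 array.

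Planar cell polarity genes and PTK7 partners, the pathway of the targeted gene, showed 0 of 27 measured members past the threshold over both lines, and their median difference was 0.10. Of these, 16 lay above 0 and 11 below. The members with the smallest p were PRICKLE3, a cytoplasmic polarity protein, at -0.48 ± 0.10, the Wnt co-receptor RYK at 0.35 ± 0.09 and the receptor FZD6 at 0.47 ± 0.13 (limma adjusted p of 0.0656, 0.111 and 0.137), followed by PTK7 itself. Counts of members past the threshold in this and the following lists stand against 0.446% of all genes higher and 1.74% lower. Of 15 canonical Wnt target genes, 1 rose, DKK1, and 0 fell, with a median of 0.17. The Wnt targets BMP4 and ZNRF3 had differences of 0.47 and 0.30 and the Wnt effector LEF1 one of -0.53, without passing (limma adjusted p from 0.159 to 0.364). LEF1 read 9.0, 8.93 and 7.90 in H1299 and 3.58, 4.05 and 3.83 in H2009, so its difference came from H1299, where it is expressed, and was 0.01 without the H1299 PTK7-1 array. The share of all genes that rose was 0.446%, and a single member of 15 is too few to set against it.

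YAP and TAZ targets had 2 of 25 measured members higher, ANKRD1 and FJX1, where 0.446% of all genes were higher, 0 lower, and a median of 0.23 against 0.01 for all genes. Of the 25, 20 lay above 0, and the median of the PTK7-1 array was 0.34 in H1299 and 0.14 in H2009. That of the PTK7-2 array, against the same controls, was 0.42 in H1299 and -0.01 in H2009. FJX1, a secreted relative of the polarity kinase four-jointed, read 8.27, 8.04 and 8.92 in H1299 and 6.68, 6.35 and 7.22 in H2009. Its difference was 0.74 ± 0.13 (limma adjusted p = 0.0433), and the call was lost without any one of the 6 arrays (adjusted p from 0.0618 to 0.192). The stress gene GADD45A and the kinase NUAK2 had 0.55 and 0.50 without passing (limma adjusted p of 0.149 and 0.192). The TEAD core of the ANKRD1 promoter shown above was found in 6 of 18 members with a promoter sequence (33.3%), ANKRD1, CCN2, FOXF2, NUAK2, PTPN14 and TGFB2.

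Most interferon-stimulated genes, which code for antiviral proteins, lay below the controls in H2009 and not in H1299, a difference between lines that was not tested as a list. Of 38 measured members, 33 lay below the control mean in H2009 and 31 below both controls (38.6% of all genes did), with a median of -0.41. In H1299, 16 lay below the control mean and 10 below both controls (32.8% of all genes did), with a median of 0.02. Their control level was also higher in H2009, at a median of 7.39 against 5.36 in H1299. Over both lines 1 member, OAS3, fell and 0 rose, and the list median was -0.19. With PTK7-2 against the same controls the list median was 0.07 in H1299 and -0.34 in H2009.

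OAS3, an activator of RNase L, read 6.65, 6.18 and 5.18 with GFP, LUC and PTK7-1 in H1299 and 7.32, 7.35 and 6.45 in H2009. It fell by 1.06 ± 0.15 on the log2 scale (limma adjusted p = 0.0262), below both controls in each line. With PTK7-2 it read 7.32 and 7.19. DDX60, an antiviral helicase, read 6.06, 5.33 and 5.06 in H1299 and 9.02, 8.67 and 6.46 in H2009, with -1.51 ± 0.40 over both lines (limma adjusted p = 0.122), made of -0.63 in H1299 and -2.39 in H2009. IFIT2, which binds foreign RNA, read 4.44, 3.91 and 4.23 in H1299 and 6.39, 6.47 and 4.26 in H2009, where it fell by 2.17 (limma adjusted p = 0.0449), a call lost without either H2009 control array (0.121 and 0.211). HERC6 and IFI35 had -0.73 and -0.42 over both lines without passing (limma adjusted p of 0.0766 and 0.102). OAS3 lost its call without the H1299 PTK7-1, H2009 GFP, H2009 LUC or H2009 PTK7-1 array (adjusted p from 0.081 to 0.148).

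The promoters of OAS3 and DDX60 are shown because both carry the core of the interferon-stimulated response element, GAAA, then 2 bases of any kind, then GAAA, on which interferon-activated factors are known to bind. Both are the 250 bases before the RefSeq start in GRCh38.p14, OAS3 at chr12:112938224-112938473 on the plus strand and DDX60 at chr4:168318753-168319002 on the minus strand, with matches on either strand in capitals.
OAS3: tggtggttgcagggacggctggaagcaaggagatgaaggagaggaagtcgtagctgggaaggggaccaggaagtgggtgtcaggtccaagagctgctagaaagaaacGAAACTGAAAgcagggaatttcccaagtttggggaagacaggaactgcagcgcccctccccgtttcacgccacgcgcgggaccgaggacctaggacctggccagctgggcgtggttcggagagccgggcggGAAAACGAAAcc
DDX60: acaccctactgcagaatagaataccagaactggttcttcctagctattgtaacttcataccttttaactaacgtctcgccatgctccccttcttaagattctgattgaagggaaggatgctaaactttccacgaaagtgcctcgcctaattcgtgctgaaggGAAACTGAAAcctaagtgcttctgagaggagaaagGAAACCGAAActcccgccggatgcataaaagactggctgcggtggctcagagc
The matches start 143 and 12 bases before the start of OAS3 and 88 and 53 bases before that of DDX60. The core was found in 18 of 30 list members with a promoter sequence (60%), against 2.57% of all 14230 promoters, and in 2.2% of the 273 genes lower with PTK7-1 that had a promoter sequence. Matches are a description of these letters and do not show binding.

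NRF2 targets, the antioxidant genes, had 0 of 21 measured members past the threshold and a median of 0.18. In H1299, 15 of the 21 lay above both controls (36.8% of all genes did) with a median of 0.33, and in H2009 10 did (40% of all genes) with a median of 0.07. The list median with PTK7-2 was 0.08 in H1299 and -0.08 in H2009. HMOX1, the haem-degrading enzyme, read 7.50, 8.12 and 10.05 in H1299 and 9.35, 9.50 and 10.34 in H2009. Its difference of 1.57 ± 0.31 over both lines just missed the threshold (limma adjusted p = 0.0573). In H1299 alone it passed at 2.24 (0.0453), a call lost without either H2009 control array (0.102). GCLM, a subunit of the enzyme that starts glutathione synthesis, read 7.23, 7.14 and 8.14 in H1299 and 9.01, 8.93 and 9.30 in H2009, with 0.64 ± 0.15 (limma adjusted p = 0.0899). UGDH and SRXN1 had 0.42 and 0.39 (limma adjusted p of 0.0773 and 0.144).

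The GCLM promoter (250 bases before the RefSeq start, chr1:93909431-93909680, GRCh38.p14, minus strand) is shown for its antioxidant response element core TGACNNNGC, searched on both strands and set in capitals.
GCLM: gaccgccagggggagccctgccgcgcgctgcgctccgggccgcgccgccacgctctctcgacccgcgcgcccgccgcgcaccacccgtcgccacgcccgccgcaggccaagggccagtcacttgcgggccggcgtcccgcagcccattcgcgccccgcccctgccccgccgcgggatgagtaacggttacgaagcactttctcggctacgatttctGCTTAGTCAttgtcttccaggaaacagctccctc
The match starts 34 bases before the gene start. The core was found in 4 of 17 list members with a promoter sequence (23.5%) and in 11.8% of all promoters.

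Genes of the unfolded protein and integrated stress response had 1 of 27 members higher, HYOU1, and 0 lower, with a median of 0.17. HYOU1, a chaperone of the endoplasmic reticulum, read 8.40, 8.48 and 9.03 in H1299 and 8.87, 8.91 and 9.50 in H2009, with 0.60 ± 0.09 (limma adjusted p = 0.0266). Members that missed the threshold narrowly were HERPUD1 at 0.56, VLDLR at 0.64 and, in the other direction, the chaperone DNAJB11 at -0.53 (limma adjusted p of 0.0553, 0.063 and 0.0542). In H2009 19 of the 27 members lay above both controls (40% of all genes) and in H1299 12 did (36.8%). The C/EBP-ATF composite core TGATGNAA was found in 4 of 27 promoters of the list (14.8%), those of ASNS, ATF3, CHAC1 and HERPUD1, and in 2.19% of all promoters.

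Genes downstream of ERK signalling had 0 of 23 members past the threshold and a median of 0.25, with a larger median in H2009. In H2009 18 of the 23 lay above both controls (40% of all genes did) and the median was 0.47. In H1299 9 did (36.8% of all genes), a share near that of all genes, and the median was 0.01. The difference between the lines was not tested. With PTK7-2 against the same controls the list median was 0.17 in H1299 and 0.65 in H2009, so this shift was not particular to PTK7-1. EPHA2, an ephrin receptor, read 8.84, 8.71 and 9.18 in H1299 and 8.50, 8.31 and 10.06 in H2009, with 1.03 ± 0.26 over both lines (limma adjusted p = 0.107), made of 0.41 in H1299 and 1.65 in H2009. The feedback inhibitor SPRED1 had 0.63, the EGFR ligand EREG 0.75 and the cytokine IL1A 0.75 (limma adjusted p of 0.0974, 0.144 and 0.178). Within H2009, EPHA2 and IL1A passed with 1.65 and 1.32 (limma adjusted p = 0.0427 for both), where 0 genes passed without either H2009 control array. The AP-1 and immediate early genes, which act close to this pathway, had 0 of 19 members past the threshold and a median of -0.06, which was 0.08 in H1299 and -0.32 in H2009. Their first members by p were KLF6 at -0.31, IER3 at 0.26, DUSP1 at -0.49 and JUND at -0.32 (limma adjusted p from 0.139 to 0.311). The AP-1 core TGANTCA was found in 0 of 15 of their promoters and in 4.91% of all.

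Small RNA processing genes, whose products also handle the hairpins, had 1 of 15 members lower, DICER1, and 0 higher, with a median of -0.16 and 12 members below 0. DICER1, the nuclease that cuts hairpins into guide strands, read 10.51, 10.58 and 9.44 in H1299 and 8.78, 8.94 and 8.27 in H2009. It fell by 0.85 ± 0.14 on the log2 scale (limma adjusted p = 0.0345). With PTK7-2 it read 9.66 and 8.15, so both PTK7 hairpins lay below the controls, and the difference between them was -0.05 (limma adjusted p = 0.953). AGO4, the microprocessor subunit DGCR8 and TARBP2 had -0.60, -0.41 and -0.31 without passing (limma adjusted p from 0.119 to 0.153). DICER1 lost its call without either H1299 control array, the H1299 PTK7-1 array or either H2009 control array (adjusted p from 0.0624 to 0.146).

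Few cell cycle genes passed the threshold. DNA replication genes had 0 of 30 members past the threshold and a median of -0.09, with MCM7 at -0.62, MCM5 at -0.43, MCM6 at -0.54 and POLA1 at -0.35 (limma adjusted p from 0.0691 to 0.131). Mitosis genes had 1 of 27 higher, the spindle checkpoint gene MAD2L1, with 0.48 ± 0.09 (limma adjusted p = 0.0492). In the replicate block fit MAD2L1 did not pass (0.0745). The microtubule-binding kinetochore gene CENPF had -0.65 (limma adjusted p = 0.052), and KIF23 and KIF2C had 0.35 and 0.29. Of the G1 cyclins, inhibitors and p53 targets, 2 of 25 fell, RBL2 and TP53I3, and 0 rose, where 1.74% of all genes fell, and the median was -0.07. RBL2, a pocket protein related to RB that holds cells out of cycle, read 8.30, 7.99 and 6.85 in H1299 and 8.51, 8.70 and 7.19 in H2009. The log2 difference was -1.35 ± 0.12 for RBL2 and -0.68 ± 0.10 for TP53I3, a p53-induced oxidoreductase (limma adjusted p of 0.00755 and 0.0258). The inhibitor CDKN1B and the p53 target SESN1 had 0.66 and -0.52 without passing (limma adjusted p of 0.0742 and 0.0841).

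Signalling and surface lists each had at most a single member past the threshold. In SMAD and BMP signalling it was SMAD1, the BMP-responsive transcription factor, which fell by 1.02 ± 0.10 (limma adjusted p = 0.00941), from 7.67 and 7.73 to 6.76 in H1299 and from 7.06 and 7.23 to 6.04 in H2009. SMAD4 and ACVR2A had -0.48 and -0.41 (limma adjusted p of 0.0992 and 0.104). Among PI3K subunits and regulators it was PIK3CB, the p110 beta catalytic subunit, which fell by 1.12 ± 0.15 (limma adjusted p = 0.0215), with MTOR at -0.42, RPTOR at -0.39 and IRS2 at 0.33. Among desmosome and junction genes it was the desmosomal cadherin DSC2, which fell by 1.30 ± 0.11 (limma adjusted p = 0.00702), with CLDN1 at 0.84, PKP4 at 0.29 and DSG2 at 0.22. Among hypoxia and glycolysis genes it was the glucose transporter SLC2A3, which rose by 0.83 ± 0.12 (limma adjusted p = 0.0256), while LDHA stood at -0.50 (0.0542), PFKFB4 at -0.37 and ANGPTL4 at 0.52. The medians of these 4 lists were 0.02, 0.06, -0.04 and 0.01. SMAD1, PIK3CB, DSC2 and SLC2A3 were also away from the controls with PTK7-2, and 0 of these 4 passed the test between hairpins (limma adjusted p from 0.178 to 0.926). A missed threshold does not show that their levels were equal with both hairpins.

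All 11 members of these lists that passed the threshold and were not among the 30 largest changes lost the call without the H1299 PTK7-1 array (adjusted p from 0.0531 to 0.205) and without the H2009 GFP array (0.0527 to 0.177). Without the H2009 PTK7-1 array 10 of the 11 lost it, all but DICER1. Without the H2009 LUC array 8 lost it, all but RBL2, DSC2 and SMAD1. Without the H1299 GFP array FJX1, HYOU1, DICER1 and MAD2L1 lost it, and without the H1299 LUC array FJX1, DICER1 and MAD2L1. With every probe set fitted 8 of the 11 lost it, all but RBL2, DSC2 and SMAD1.

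The other lists had 0 members past the threshold. These were apoptosis regulators (23 measured, median 0.09), integrins and basement membrane (23, 0.08), mesenchymal genes (19, 0.10), cytokines and NF-kB targets (22, 0.01), cholesterol synthesis (18, 0.03), ribosomal proteins (20, 0.00) and the epithelial and lung lineage markers (12, -0.03). The apoptosis inhibitor BCL2L1 had 0.74 and the mitophagy receptor BNIP3L -0.41 (limma adjusted p of 0.106 and 0.162). The laminin gene LAMB3 had 0.91, the basement membrane linker NID1 0.49 and the integrin ITGB5 0.54 (limma adjusted p from 0.0854 to 0.102), and LAMB3 passed with the hairpin as a replicate block (0.0244). NFKBIA, the inhibitor of NF-kB, read 8.96, 8.42 and 7.88 in H1299 and 9.92, 10.06 and 9.18 in H2009, with -0.81 ± 0.15 (limma adjusted p = 0.0542). MUC1, a surface mucin, read 5.63, 4.91 and 4.65 in H1299 and 8.19, 8.60 and 6.16 in H2009, with -1.43 ± 0.38 (limma adjusted p = 0.121), made of -0.62 in H1299 and -2.24 in H2009. Both PTK7-1 arrays lay below their controls for NFKBIA and MUC1.

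**Figure D5:**
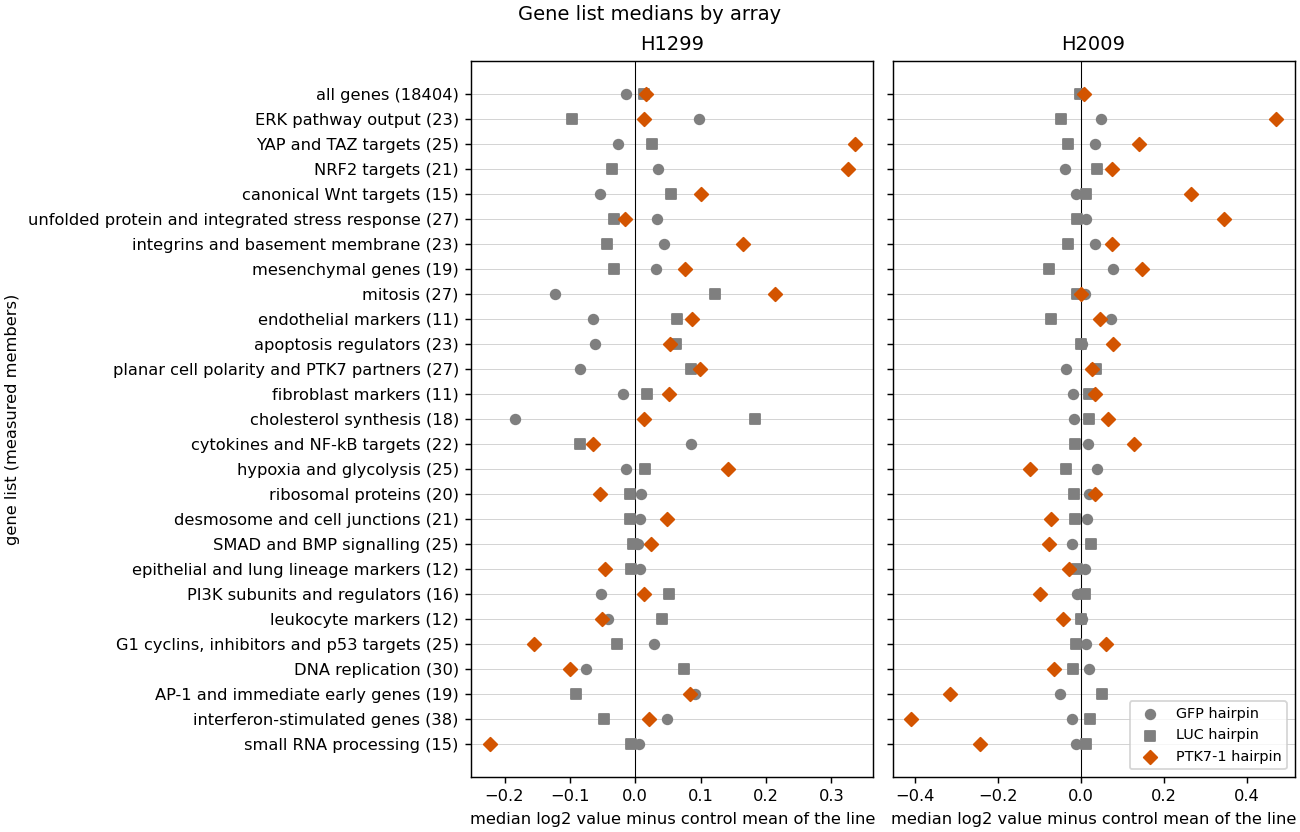
Median log2 value minus the control mean of the line over the measured members of each gene list (rows, members in brackets), in H1299 (left) and H2009 (right), with 1 symbol per array and all genes in the top row. The PTK7-1 array (diamonds) stands apart from the controls for YAP and TAZ targets and NRF2 targets in H1299 (0.34 and 0.33) and for ERK output and interferon-stimulated genes in H2009 (0.47 and -0.41).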

How the data were processed

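Expression was measured on 8 Affymetrix arrays, 1 per hairpin and line, and 6 of them were compared. Probe set values were deposited by the authors on the log2 scale after RMA, and the submitters' processing notes name R 2.14.0. RMA corrects background, normalizes between arrays and summarises probes. Of 32321 probe sets, 19158 had a single gene symbol in the platform annotation, 1388 several and 11775 none. The brightest probe set was kept for 637 genes with several, which left 18404 genes, and gene IDs of 19128 single-symbol probe sets matched RefSeq.

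PTK7-1 minus control was fitted with limma 3.58.1 in R 4.3.3 with cell line as covariate (3 residual degrees of freedom), empirical Bayes moderation and Benjamini-Hochberg adjustment at 0.05. Within-line contrasts used a mean per line and hairpin class, and PTK7-1 minus PTK7-2 used hairpin plus line over 8 arrays. Genes were named by a rule that took PTK7 and, over both lines, at most 15 genes in each direction by size. These had to pass the threshold with the PTK7-1 array beyond both controls in each line. The rule also took up to 5 genes per direction within each line, by size among those past the threshold there. It further took the 3 smallest p per direction between lines, and up to 4 members per list by p. The members, the 26 lists and the tests were chosen with earlier results of these data known. Both lines received the same hairpins, per the labels, and GFP minus LUC correlated between lines across genes (r = 0.23), so the hairpin was also fitted as a replicate block. This block took up only the gap between GFP and LUC. PTK7-1 is a single hairpin, so its own effect as a hairpin cannot be told apart from the tested difference. Other alternatives were other normalizations, priors, probe set rules, filters, control hairpins and each array left out. The fits were also run on simulated arrays with independent noise and the same change in both lines. Effects of single hairpins were not simulated, so that run cannot show whether the p-values hold for these arrays. RefSeq promoters of GRCh38.p14 (250 bases before the start) matched 14230 genes by symbol. The number of arrays limits the precision. Hairpin sequences were not used here. Figures were drawn with matplotlib 3.10.9.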

Additional observations from a re-analysis of the deposited data

How the results depend on the processing

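No gene of the 402 turned its sign in any setting run for both lines, apart from the fit of every probe set, where signs were not compared. The hairpin as a replicate block gave 347 genes, 78 higher and 269 lower, of which 297 were among the 402. The hairpin as a random effect gave 764 (186 higher, 578 lower), every probe set 127 (16 and 111), GFP arrays as the only controls 187 (44 and 143), LUC arrays as the only controls 0 (0 and 0), and a mean per line and hairpin class 135 higher genes. Without each array in turn the count ran from 20 to 354, from 2 to 77 higher and from 18 to 277 lower. In H1299 (106) the count was 633 with the replicate block, 36 with cyclic loess, 0 with every probe set, 182 with a trended prior and 1 to 1047 without an array. In H2009 (61) it was 638, 0, 0 and 97, 37 without the dimmest 40% of genes, and 0 to 926 without an array. Between lines (0) it was 9 with the replicate block and 0 to 9 without an array. PTK7-1 minus PTK7-2 (686) gave 298 with every probe set, 433 without control arrays and 0 to 943 without an array. The PTK7 difference ran from -1.11 to -0.26 without an array and passed in no setting.

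Values of genes that did not pass turned sign without the H1299 PTK7-1 array for LEF1 (0.011), RPL3 (0.02) and KRT7 (0.019), without the H2009 PTK7-1 array for IL6 (0.067), RPL22 (-0.019) and ESAM (-0.061), and with LUC controls for PECAM1 (-0.052). Without the other PTK7-1 array the values were -1.06 for LEF1, -0.21 for RPL3, -0.58 for KRT7, -1.55 for IL6, 0.23 for RPL22 and 0.53 for ESAM. The cause of these changes was not tested. With 3 residual degrees of freedom and a single PTK7-1 array per line, a p that misses the threshold does not show that a gene was equal to the controls.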

Other observations

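Some gene families and gene types, picked after their values were seen, had several members past the threshold with PTK7-1, where 1.74% of all genes were lower. Larger families had smaller shares, with 3 of 60 RAB GTPases, 2 of 33 VPS sorting genes and 3 of 28 SLC35 transporters lower. Of 5 SERINC genes, which encode multi-pass membrane proteins, 3 were lower than the controls: SERINC1 at -0.88 ± 0.10, SERINC3 at -0.61 ± 0.09 and SERINC5 at -1.20 ± 0.14 on the log2 scale (limma, Benjamini-Hochberg adjusted p of 0.0154, 0.0251 and 0.0154). SERINC5 read 8.09, 8.02 and 6.85 with GFP, LUC and PTK7-1 in H1299 and 8.58, 9.05 and 7.62 in H2009, so the PTK7-1 array was the lowest in both lines. Of 7 PLPP genes, which encode phospholipid phosphatases, PLPP1, PLPP3 and PLPP6 were lower, at -0.94 ± 0.17, -1.04 ± 0.18 and -0.72 ± 0.11 (limma adjusted p of 0.0474, 0.0408 and 0.0314). Of 3 muscleblind splicing regulators, MBNL3 was lower beside MBNL1, at -1.03 ± 0.17 (limma adjusted p = 0.0363). These members lost their call without either PTK7-1 array, and apart from SERINC5 also without either H2009 control array. PLPP1, which was at -0.61 without the H1299 PTK7-1 array, also lost it in the replicate block fit (0.0551) and without either H1299 control array and PLPP3 without the H1299 LUC array. Adjusted p where a call was lost ran from 0.053 to 0.196.

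Small nucleolar RNAs, which guide chemical modification of ribosomal and other RNA, had 5 of 175 measured members higher (2.86%) and 0 lower, against 0.446% and 1.74% of all genes. These were SNORA14B, SNORA71A, SNORD38B, SNORD45C and SNORD51, with differences of 0.75, 0.66, 0.65, 0.86 and 0.61 (limma adjusted p from 0.0118 to 0.0371). SNORD45C read 6.59, 6.54 and 7.36 with GFP, LUC and PTK7-1 in H1299 and 6.24, 6.13 and 7.10 in H2009. Many of these RNAs lie in introns of other genes, and probes may also read the host's precursor. With PTK7-2, SNORA71A had differences from the controls of -0.74 and -0.29 and SNORD51 of -0.98 and -0.15 in H1299 and H2009. The others of the 5 were not among the 16 genes that went in opposite directions. All 5 calls were lost with the LUC arrays as the only controls, as for all genes. They were not followed singly with each array left out, where far fewer higher genes passed in some cases. MT1X, a metallothionein that binds zinc and copper, fell by 1.13 ± 0.14 with PTK7-1 (limma adjusted p = 0.0184) and had differences of 0.72 and 0.29 with PTK7-2. It lost its call without the H1299 PTK7-1 array or either H2009 control array (adjusted p from 0.0735 to 0.0823), and its paralogs are similar enough that probes may not tell them apart.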
